A study of Mus musculus with 2 samples.

Results

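Mature natural killer (NK) cells were described among CD45+ liver leukocytes of mice with liver metastases of the mouse melanoma line B16F10. They numbered 535 of the 12618 barcodes that held at least 200 genes, at least 500 UMIs (counted mRNA molecules) and at most 10% mitochondrial UMIs. The cells were chosen by measured values: at least 1 UMI over Ncr1, Klrb1c and Klre1, at least 1 over Eomes, Klra8 and Klra4, no Cd3d, Cd3e, Cd3g or Cd79a UMI, and at least 1 UMI over the maturity genes Klrg1, Zeb2 and Itgam. The libraries were 1 from WT mice and 1 from Vsig4 KO mice, which lack VSIG4, a complement receptor and coinhibitory ligand of tissue macrophages. Both were made from livers bearing B16F10 metastases, sorted for live CD45+ singlets and prepared with 10x 5' chemistry. The labels give no age or sex, no cell type restriction of the knockout and no number of pooled mice. The comparisons below are therefore between 2 libraries, not between genotypes with replicates, and no test was possible. All intervals are 95% intervals and cover counting error only.

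NK cells are innate lymphocytes that kill cells through perforin and granzymes and release interferon-gamma and chemokines. In mice they mature from CD27+ to CD11b+ cells (CD11b is encoded by Itgam), and KLRG1, an inhibitory receptor for cadherins, appears late. The T-box factors EOMES and T-bet (Tbx21) set the lineage, and ZEB2 acts with T-bet in terminal maturation. Ly49 receptors (Klra genes) read classical MHC class I, and the CD94/NKG2A pair (Klrd1, Klrc1) reads Qa-1. In the liver, circulating NK cells of this kind lie beside resident type 1 innate lymphoid cells (ILC1), which lack EOMES.

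Promoter sequences are shown first for 5 genes on which the results turn: the granule proteases Gzma and Gzmb, the pore former Prf1, the cytokine Ifng and the factor Tbx21. Each run is the 250 bases before the gene's start in RefSeq, 5' to 3' on the gene's strand. Capitals mark matches, on either strand, to CAGGTG, the E-box bound by ZEB factors, to GGTGTGA, a T-box core, or to TGANTCA, an AP-1 site; the first 2 can overlap by sharing GGTG.
Gzma (GRCm38.p6, chr13:113100982-113101231, minus strand): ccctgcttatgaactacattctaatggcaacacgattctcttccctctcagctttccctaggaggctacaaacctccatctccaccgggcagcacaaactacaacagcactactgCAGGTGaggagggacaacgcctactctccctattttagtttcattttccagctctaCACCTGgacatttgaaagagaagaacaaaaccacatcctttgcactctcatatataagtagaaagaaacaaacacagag
Gzmb (GRCm38.p6, chr14:56262335-56262584, minus strand): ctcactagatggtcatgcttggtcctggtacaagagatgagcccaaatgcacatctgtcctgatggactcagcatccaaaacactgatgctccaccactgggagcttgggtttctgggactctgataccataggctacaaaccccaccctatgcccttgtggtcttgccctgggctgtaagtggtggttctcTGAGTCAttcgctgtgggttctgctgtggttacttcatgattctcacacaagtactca
Prf1 (GRCm38.p6, chr10:61297586-61297835, plus strand): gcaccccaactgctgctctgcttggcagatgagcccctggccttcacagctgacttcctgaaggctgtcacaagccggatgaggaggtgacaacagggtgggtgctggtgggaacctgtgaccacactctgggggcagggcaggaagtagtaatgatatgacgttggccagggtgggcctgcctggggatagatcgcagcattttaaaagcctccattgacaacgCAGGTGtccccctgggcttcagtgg
Ifng (GRCm38.p6, chr10:118440796-118441045, plus strand): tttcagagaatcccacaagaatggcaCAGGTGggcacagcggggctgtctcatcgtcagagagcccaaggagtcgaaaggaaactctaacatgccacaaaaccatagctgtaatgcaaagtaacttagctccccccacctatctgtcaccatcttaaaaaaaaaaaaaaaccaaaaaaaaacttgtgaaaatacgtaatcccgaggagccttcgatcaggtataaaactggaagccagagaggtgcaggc
Tbx21 (GRCm38.p6, chr11:97115332-97115581, minus strand): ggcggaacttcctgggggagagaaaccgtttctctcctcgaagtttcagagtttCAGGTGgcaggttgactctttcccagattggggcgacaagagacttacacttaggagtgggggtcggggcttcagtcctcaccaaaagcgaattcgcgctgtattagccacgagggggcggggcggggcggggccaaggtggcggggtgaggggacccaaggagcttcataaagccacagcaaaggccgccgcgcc
CAGGTG was matched 2 times before Gzma, starting 135 and 79 bases from the gene's start. It was matched once before each of Prf1 (25 bases), Ifng (224 bases) and Tbx21 (196 bases). Gzmb held no CAGGTG and 1 TGANTCA, starting 58 bases from its start. The T-box core had no match in these 5 windows. Among 32841 RefSeq windows of the same length, 17.2% held CAGGTG, 3.33% GGTGTGA and 6.75% TGANTCA. A match describes letters and is no evidence of binding.

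The WT library gave 317 members of 6872 barcodes (4.61%, 4.13 to 5.14), and the Vsig4 KO library 218 of 5746 (3.79%, 3.32 to 4.32). The share was 0.823 times as large in Vsig4 KO (0.689 to 0.980). NK cells that met the rest of the rule but held no UMI of the maturity genes, called less mature here, numbered 175 in WT (2.55%) and 94 in Vsig4 KO (1.64%), a ratio of 0.642 (0.495 to 0.830). Members were thus 64.4% (WT) and 69.9% (Vsig4 KO) of the gated NK cells. Members with a Klrg1 UMI were 91 and 93, and their share ratio was 1.22 (0.906 to 1.65), in the other direction from that of all members. Fewer cells of a type and a larger number of other sorted cells give the same share.

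Depth was close in both libraries, with a median of 3110 UMIs and 1494 genes per member in WT and 3325 UMIs and 1596 genes in Vsig4 KO. Summed over members, there were 1187456 and 837114 UMIs. The libraries shared 54 barcodes; no barcode was a member in both, and 6 members had a barcode that also occurred in the other library. Vsig4 itself can check the labels only in macrophages, and no member held a Vsig4 UMI. Csf1r-positive cells held 3.81 CPM (counts per 1000000 UMIs of the group) of it in WT and 0.959 CPM in Vsig4 KO. This check is weak: the levels rest on few UMIs, from 1014 and 391 cells, whose make-up was not compared. Cd5, which encodes the reported VSIG4 partner, had 1 and 2 UMIs among all members, and its relative Cd6 had 2 and 1.

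Some members carried RNA of other cells. At least 10 UMIs over 20 monocyte and macrophage, neutrophil and dendritic cell markers were found in 23 WT members (7.26%) and 7 Vsig4 KO members (3.21%). Their median depth was 8559 and 8165 UMIs. Summed macrophage markers stood at 991 CPM in WT and 504 CPM in Vsig4 KO over all members, and at 45.5 and 25.0 CPM without these mixed barcodes. For dendritic markers the sums were 2812 and 1584 CPM, then 108 and 124 CPM; for neutrophil markers they were 483 and 9.56 CPM, then 4.04 and 7.89 CPM. Values without the mixed barcodes are given beside each gene's Vsig4 KO over WT ratio below where they move it past its interval or to the other side of 1. Without them the share ratio of members was 0.858 (0.716 to 1.03).

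The NK part of the label was checked on NK genes that the rule did not use, beside B cells of the same libraries. The B cells were chosen to hold no UMI of Ncr1, Klrb1c or Klre1, so these genes cannot be compared with them. After each cell was thinned to 1000 UMIs, Prf1 was found in 41.5% of 313 WT members and 60.0% of 215 Vsig4 KO members, against 0.0542% of 1844 WT B cells and 0 of 1961 Vsig4 KO B cells, which allows a share of up to 0.153%. Gzma reached 92.3% and 98.6% of thinned members, against 0.597% and 0.714% of B cells. Thinned less mature NK cells held Prf1 in 26.6% (WT) and 39.1% (Vsig4 KO), and Gzma in 86.7% and 97.8%. The check therefore sets the gated NK cells apart from B cells only, and does not bear on the mature stage. Thinned T cells (at least 2 Cd3 UMIs) held Prf1 in 2.90% (WT) and 2.17% (Vsig4 KO), and Gzma in 3.06% and 4.57%. These T cells also held no Ncr1, Klrb1c or Klre1 UMI. Whether Prf1 and Gzma separate members from cytotoxic T cells or from ILC1 was not tested. Zeb2, a gene of the label, does not mark NK cells alone: at the same depth it was found in 42.5% and 34.0% of members and in 13.1% and 11.9% of B cells. Ncr1, the rule gene that encodes the activating receptor NKp46, was found in 65.3% and 77.5% of members before thinning. Of the T cell markers outside the rule, the Trbc1 constant region gave 253 and 138 UMIs in members; transcripts from it are also known in NK cells without a T cell receptor.

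The genes of the rule are given as a description. Zeb2 was the maturity gene found most often, in 77.3% (WT) and 77.5% (Vsig4 KO) of members, at 520 and 474 CPM. Itgam was found in 41.6% and 44.5%, at 151 and 155 CPM. Klrg1 was found in 28.7% of members in WT (23.8 to 34.0) and in 42.7% in Vsig4 KO (36.0 to 49.5), at 115 and 191 CPM, a ratio of 1.67 (1.32 to 2.11). Cells with Zeb2 alone were 39.4% of members in WT and 32.1% in Vsig4 KO, and cells with UMIs of all 3 genes were 6.94% and 13.3%. The threshold is low: 112 WT members (35.3%) and 63 Vsig4 KO members (28.9%) had exactly 1 maturity UMI, just inside, while the less mature cells had 0. The median sum was 2 and 2.5. Eomes stood at 339 and 425 CPM, Ncr1 at 403 and 571 CPM, Klrb1c at 504 and 573 CPM, and Klre1 at 757 and 762 CPM. GENCODE M21, an annotation of GRCm38, places Klrg1 at chr6:122270596-122282882, Zeb2 at chr2:44983632-45117395 and Itgam at chr7:128062640-128118491.

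Members were then set beside the less mature NK cells of the same library. The rule fixed the maturity genes in this contrast, so other genes are described here and nothing is tested. Of 2872 genes with enough UMIs in both libraries, 42 (1.46%) were at least 1.5-fold higher in members in both, and 26 (0.905%) at least 1.5-fold lower. S1pr5, the sphingosine receptor that lets mature NK cells leave bone marrow and lymph nodes, stood at 31.3 CPM in less mature cells and 91.8 CPM in members in WT, and at 51.2 and 147 CPM in Vsig4 KO. That is 2.93-fold (1.77 to 5.13) and 2.87-fold (1.72 to 5.09). With mixed barcodes included, Ly6c2, a surface marker of late NK cells, was 3.20-fold and 2.03-fold higher, and the granule chymase Cma1 1.90-fold and 2.70-fold. Prf1 was 1.56-fold and 1.94-fold higher, and Prdm1, which encodes the maturation factor BLIMP1, 1.54-fold and 2.61-fold. The Rap1 regulator Rap1gap2 was 1.93-fold and 2.33-fold higher. Cx3cr1, the fractalkine receptor of the latest stage, had 1 and 2 UMIs in less mature cells and 33 and 31 in members.

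Several of the highest ratios came with the mixed barcodes. The class II chaperone Cd74 was 14.2-fold and 10.7-fold higher in members, but 1.32-fold and 1.80-fold without mixed barcodes. For the protease inhibitor Cst3 the values were 2.25-fold and 2.20-fold, then 1.06-fold and 1.49-fold. S100a4 was 3.70-fold higher in WT and 1.20-fold without mixed barcodes; in Vsig4 KO only 1 UMI was found in the less mature cells. Mixed barcodes were 3 and 1 among the less mature cells. Of the genes that had enough UMIs once all mixed barcodes were left out, 38 were higher and 16 lower. S1pr5 then had ratios of 3.09 and 2.95, and Cma1 of 2.11 and 2.84.

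The genes lower in members included known early-stage genes. Emb, an immunoglobulin-family glycoprotein, stood at 856 CPM in less mature cells and 483 CPM in members in WT, and at 939 and 352 CPM in Vsig4 KO, ratios of 0.565 (0.500 to 0.638) and 0.375 (0.319 to 0.441). Cd7 was 0.539 and 0.477 times as high, the dendritic cell attractant Xcl1 0.580 and 0.551 times, and the semaphorin receptor Plxnc1 0.480 and 0.358 times. The diacylglycerol kinase Dgka stood at 0.579 and 0.519 times, the acyltransferase Dgat1 at 0.505 and 0.489 times, and Zeb1, the paralog of Zeb2, at 0.576 and 0.651 times. Of 12 late-maturation genes 11 were higher in WT members and 12 in Vsig4 KO members. Their median log2 differences were 0.52 and 0.87, against 0.03 and 0.02 over all genes. Of all 7782 genes measured in WT, 4239 were higher in members and 3543 lower. In Vsig4 KO, 3460 of 6581 were higher and 3121 lower. Of the early-maturation genes, 13 of 15 were lower in WT and 13 of 14 in Vsig4 KO, with medians of -0.54 and -0.73. Of 18 S100, galectin and cytoskeleton genes, 17 and 18 were higher, with medians of 0.36 and 0.37. Vimentin (Vim) went from 388 to 785 CPM in WT and from 575 to 878 CPM in Vsig4 KO. The values of this list and of Vim include the mixed barcodes, whose part in them was not tested.

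S1pr5 and Gzma stood higher at each step of the sum of maturity UMIs in both libraries. In WT, S1pr5 stood at 31.3, 50.6, 98.6 and 116 CPM in cells with 0, 1, 2 and 3 or more such UMIs; in Vsig4 KO it stood at 51.2, 87.1, 125 and 182 CPM. Gzma went over the same steps from 4831 to 7243 CPM in WT and from 5989 to 10050 CPM in Vsig4 KO. Emb went from 856 to 315 CPM and from 939 to 225 CPM, and Ltb, the lymphotoxin subunit, from 164 to 47.5 CPM and from 132 to 26.0 CPM. Cells with 3 or more maturity UMIs numbered 128 and 109, with median depths of 3438 and 3382 UMIs, against 2895 and 3167 UMIs in cells with none; the part of depth in the steps was not tested. Other genes were not ordered at every step. Gzmb stood at 343, 437, 575 and 405 CPM in WT, and Prf1 at 348, 485, 657 and 533 CPM. In Vsig4 KO, Emb stood at 939, 479, 546 and 225 CPM and Ly6c2 at 214, 368, 166 and 561 CPM. All step values include the mixed barcodes, whose part in them was not tested.

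**Figure D1:**
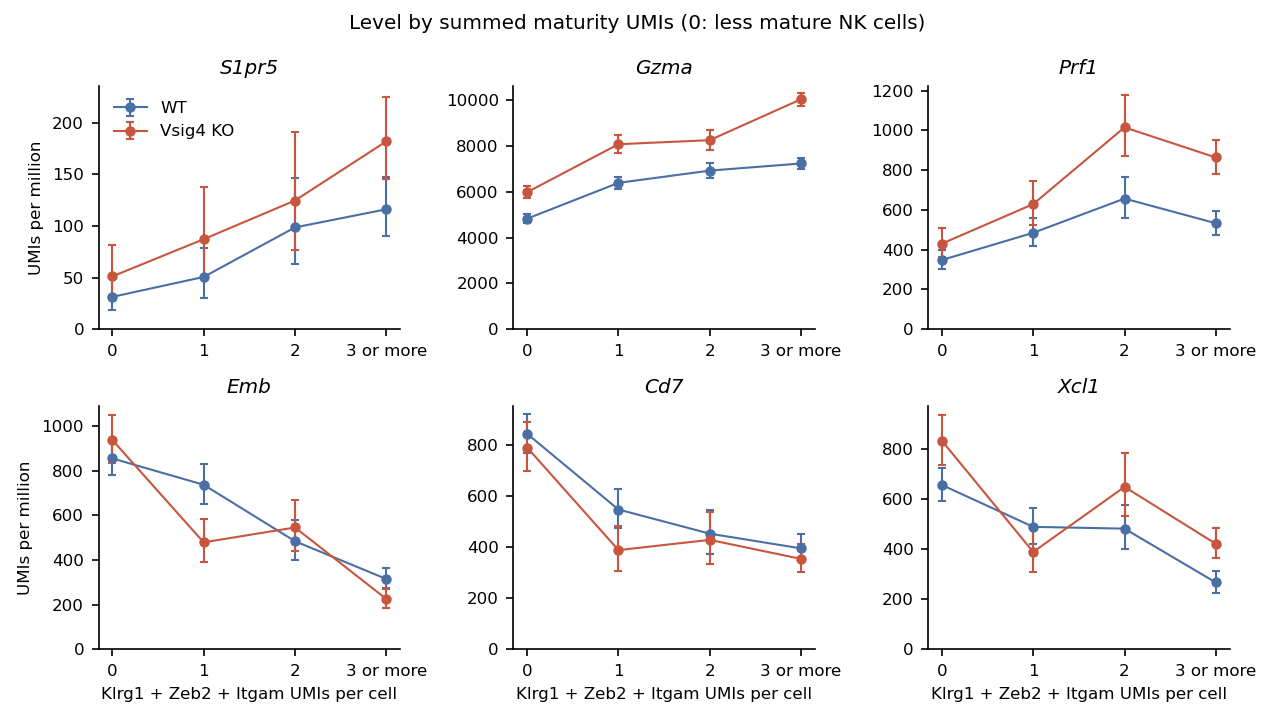
CPM of 6 genes in NK cells with 0, 1, 2 or 3 or more UMIs over Klrg1, Zeb2 and Itgam, in the WT (blue) and Vsig4 KO (red) libraries; bars are exact 95% Poisson intervals. S1pr5 and Gzma stand highest at 3 or more UMIs in both libraries, and Emb and Cd7 highest at 0. Xcl1 in Vsig4 KO goes down, up and down again over the steps. Mixed barcodes are included.

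Members with a Klrg1 UMI differed from other members in several late-stage genes. Gzmb stood at 675 CPM with and 354 CPM without Klrg1 in WT, and at 1019 and 638 CPM in Vsig4 KO, ratios of 1.91 (1.60 to 2.27) and 1.60 (1.37 to 1.87). Cma1 was 2.64-fold and 1.98-fold higher with Klrg1, and Cx3cr1 4.09-fold and 3.68-fold on 33 and 31 UMIs. The Ly49 genes divided: Klra9 (Ly49I) was 1.67-fold and 1.89-fold higher with Klrg1, while Klra1 (Ly49A) stood at 0.546 times (0.308 to 0.922) and 0.202 times (0.0699 to 0.482). Ifng differed by library: with over without Klrg1 it was 1.13-fold (0.852 to 1.48) in WT and 2.49-fold (1.95 to 3.19) in Vsig4 KO. Xcl1 stood at 0.437 times (0.334 to 0.564) in WT and at 1.26-fold (1.03 to 1.55) in Vsig4 KO. Prdm1 was 1.59-fold (1.01 to 2.47) higher in WT and at 1.17-fold (0.762 to 1.81) in Vsig4 KO. These differences between libraries were not tested.

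Between libraries, Vsig4 KO members held more RNA of late-stage, cytotoxic and early-activation genes and less of several early-stage genes than WT members. Of 3919 genes with at least 50 UMIs in 1 library and found in at least 10% of its members, 130 (3.32%) were at least 1.5-fold higher in Vsig4 KO and 179 (4.57%) at least 1.5-fold lower. The interval of the ratio excluded 1 for 126 and 154 of them. Without mixed barcodes, 100 and 131 of these genes were still past 1.5-fold. Over 8122 genes with at least 20 UMIs the median log2 ratio was -0.01, so the libraries were centred alike. Of these 8122 genes, 3913 were higher in Vsig4 KO and 4209 lower; 629 (7.74%) were at least 1.5-fold higher and 827 (10.2%) at least 1.5-fold lower, and the counts of the lists below stand beside these shares.

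The late-maturation list had a median log2 ratio of 0.48, with 11 of 12 genes higher in Vsig4 KO and 5 of them at least 1.5-fold. The median was the same 0.48 without mixed barcodes. Tbx21 gave 237 UMIs (200 CPM) in WT and 295 UMIs (352 CPM) in Vsig4 KO, a ratio of 1.77 (1.48 to 2.10), and 1.53 to 1.92 over the alternative settings. S1pr5 stood at 91.8 and 147 CPM, 1.60-fold (1.23 to 2.09), or 1.15-fold (0.794 to 1.68) when the rule was applied after thinning each cell to 1000 UMIs, and Cma1 at 152 and 252 CPM, 1.65-fold (1.35 to 2.03). Prdm1 stood at 75.0 and 110 CPM, 1.47-fold (1.08 to 1.99), and Irf8, a factor of NK maturation and expansion, at 768 and 1057 CPM, 1.38-fold. Ly6c2 was the exception, at 0.948 times (0.828 to 1.09), or 1.03-fold without mixed barcodes. In the less mature NK cells, Tbx21 was 1.34-fold (0.995 to 1.79) and Prdm1 0.865-fold (0.421 to 1.70) as high in Vsig4 KO as in WT.

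Of 20 cytotoxic granule and death ligand genes, 17 were higher in Vsig4 KO, with a median of 0.33. Gzma, Gzmb and Prf1 are also in the late-maturation list, so these lists overlap. Gzma, the most abundant granzyme of NK cells, gave 8207 UMIs (6911 CPM) and 7706 UMIs (9205 CPM), 1.33-fold (1.29 to 1.37), or 1.27-fold (1.23 to 1.31) without mixed barcodes. Gzmb stood at 450 and 805 CPM, 1.79-fold (1.60 to 2.01), with 58.4% and 73.4% of members holding a UMI. Prf1 stood at 543 and 836 CPM, 1.54-fold (1.38 to 1.72). The granzyme B inhibitor Serpinb9 was 1.46-fold higher, the granule protein Nkg7 1.27-fold, and Fasl 1.43-fold. This group depended on the gate: when the rule was applied after thinning each cell to 1000 UMIs, which left 117 and 95 members, Gzma stood at 1.04-fold (0.986 to 1.09), Gzmb at 1.07-fold (0.897 to 1.28) and the list's median at 0.10. Under that gate Prf1 was 1.45-fold (1.22 to 1.71) and Tbx21 1.57-fold (1.20 to 2.07) higher. With the members kept and only their UMIs thinned, Prf1 stood at 1.23-fold (0.999 to 1.51), Gzmb at 1.34-fold (1.08 to 1.67) and Tbx21 at 1.53-fold. In less mature NK cells Gzmb was 1.33-fold (1.07 to 1.66) and Gzma 1.24-fold higher in Vsig4 KO.

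**Figure D2:**
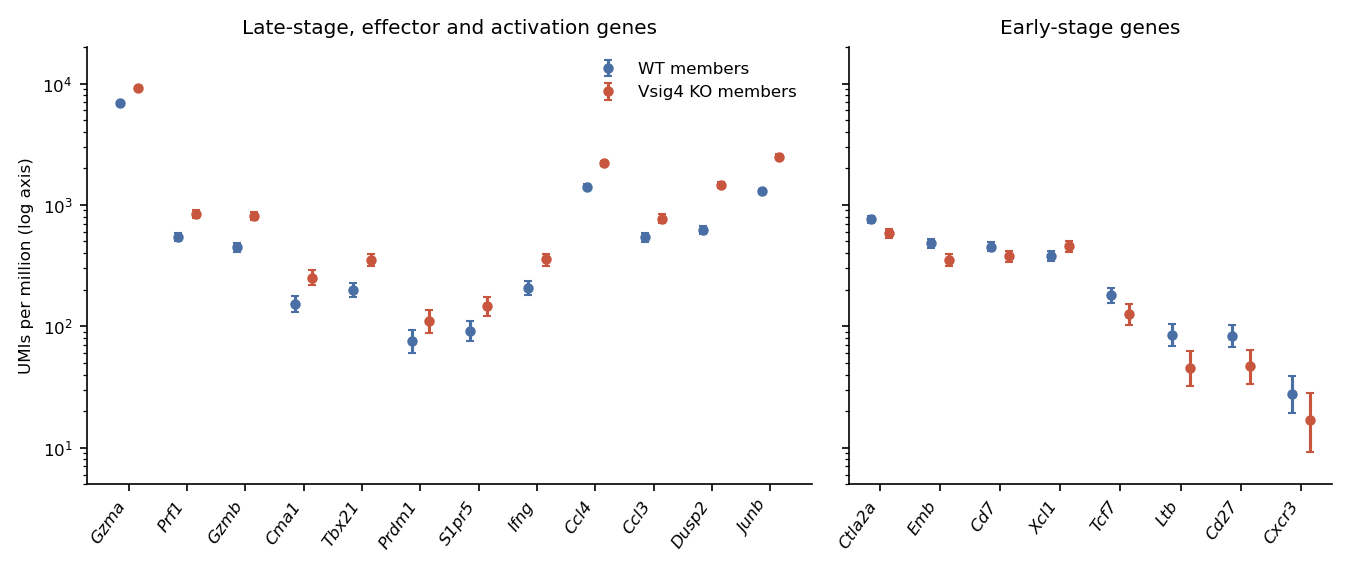
CPM in mature NK cells of the WT (blue) and Vsig4 KO (red) libraries on a log axis, with exact 95% Poisson intervals, for late-stage, effector and activation genes (left) and early-stage genes (right). The left-hand genes stand higher in Vsig4 KO, and of the right-hand genes all except Xcl1 stand lower. The genes drawn were picked from longer lists, and Ly6c2, Fos, Jun, Kit, Thy1 and Cd160 are among those not drawn. Over the full lists, 11 of 12 late-maturation and 19 of 21 early-activation genes were higher, and 11 of 15 early-maturation genes lower. Of the cytokine and chemokine genes, 6 of 11 were higher.

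The early-maturation list had a median of -0.26, with 11 of 15 genes lower and 4 at least 1.5-fold. Of those 4, Il7r (18 and 8 UMIs, 0.237 to 1.52) and Cxcr3 (33 and 14 UMIs, 0.298 to 1.16) had intervals that include 1. Cd27, the receptor that marks early NK cells, gave 99 UMIs (83.4 CPM) in WT and 39 UMIs (46.6 CPM) in Vsig4 KO, 0.559 times as high (0.376 to 0.817). Ltb stood at 85.1 and 45.4 CPM, 0.534 times (0.358 to 0.782). Tcf7, which encodes the early factor TCF1, stood at 179 and 125 CPM, 0.699 times (0.548 to 0.888), and Emb at 483 and 352 CPM, 0.729 times (0.631 to 0.840). With the thinned gate, Cd27 stood at 0.884 times (0.468 to 1.66). In the less mature cells Cd27 was 1.21 times (0.789 to 1.85) and Emb 1.10 times (0.949 to 1.27) as high in Vsig4 KO as in WT; whether these differ from the ratios in members was not tested.

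Of 11 measured cytokine and chemokine genes, 6 were higher and 5 lower in Vsig4 KO, with a median of 0.26. Ifng gave 246 UMIs (207 CPM) and 297 UMIs (355 CPM), 1.71-fold (1.44 to 2.04). Ccl4 stood at 1415 and 2204 CPM, 1.56-fold (1.46 to 1.67), and its neighbour Ccl3 at 539 and 772 CPM, 1.43-fold (1.28 to 1.60). Ccl5 was 1.24-fold higher (1.21 to 1.27), or 1.18-fold (1.15 to 1.21) without mixed barcodes. Tgfb1 stood at 307 and 472 CPM, 1.54-fold (1.33 to 1.78), with a single Vsig4 KO cell giving 45 of its 395 UMIs. The thinned gate gave 1.22-fold (0.917 to 1.64) for Ifng, 1.03-fold (0.992 to 1.07) for Ccl5 and 1.20-fold (1.08 to 1.33) for Ccl4, and members thinned to 1000 UMIs gave 1.17-fold (0.830 to 1.64) for Ifng.

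The cytokine genes were also compared between libraries in members with and without Klrg1. Among members with Klrg1, Ifng stood at 225 CPM in WT and 534 CPM in Vsig4 KO, 2.38-fold (1.82 to 3.12), and among the other members at 200 and 215 CPM, 1.08-fold (0.832 to 1.39). Ccl3 was 1.88-fold higher (1.60 to 2.23) with Klrg1 and 0.929-fold (0.786 to 1.10) without, and Xcl1 2.59-fold (1.97 to 3.46) and 0.899-fold (0.752 to 1.07). The difference between these subsets was not tested. Ccl4 had the same ratio in both, 1.48-fold. Tbx21 was 1.74-fold and 1.63-fold higher, and Prf1 1.46-fold and 1.51-fold. The late-maturation list had medians of 0.32 with and 0.56 without Klrg1.

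**Figure D3:**
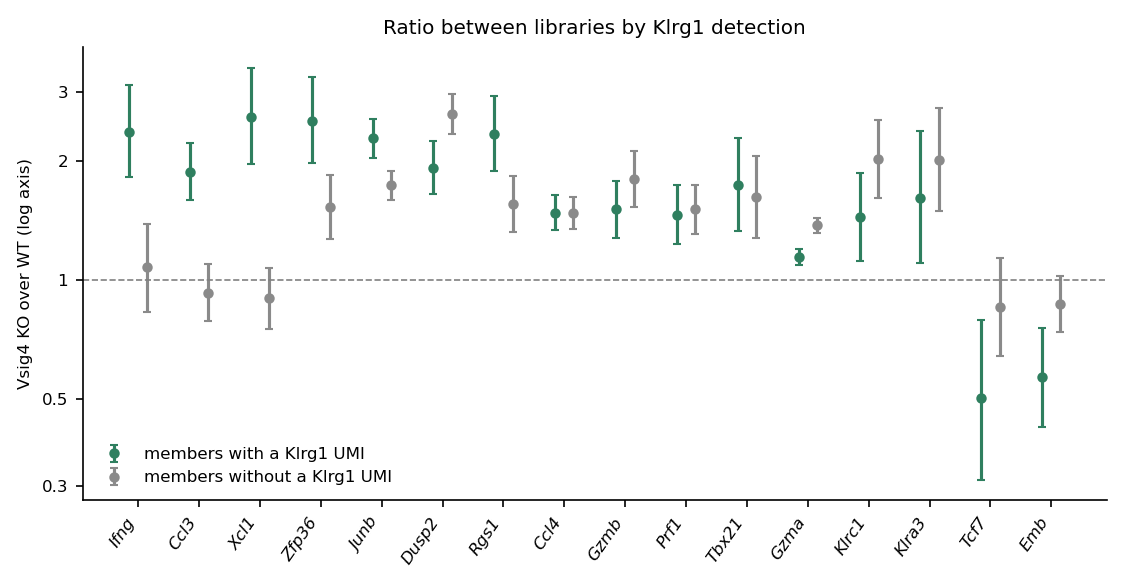
Ratio of CPM, Vsig4 KO over WT, on a log axis, in members with a Klrg1 UMI (green) and without one (grey), with exact 95% intervals; the dashed line is 1. The intervals of Ifng, Ccl3 and Xcl1 lie above 1 in members with Klrg1 and span 1 in the others, and those of Ccl4, Gzmb, Prf1, Tbx21, Klrc1 and Klra3 lie above 1 in both.

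Early-activation genes, which are induced within minutes to hours of receptor or stress signals, had a median of 0.44, and 19 of 21 were higher in Vsig4 KO. Dusp2, a phosphatase that acts on MAP kinases, gave 734 UMIs (618 CPM) and 1221 UMIs (1459 CPM), 2.36-fold (2.15 to 2.59). Junb stood at 1289 and 2496 CPM, 1.94-fold (1.81 to 2.07), and Ier2 at 465 and 751 CPM, 1.62-fold. Zfp36, which encodes an mRNA decay factor for cytokine transcripts, stood at 288 and 540 CPM, 1.88-fold (1.63 to 2.16), and at 2.62-fold (2.20 to 3.12) without mixed barcodes. Fos and Jun were at 0.953 times (0.787 to 1.15) and 0.934 times (0.836 to 1.04), and without mixed barcodes at 1.09-fold (0.869 to 1.36) and 1.11-fold (0.980 to 1.25). Dusp2 was also higher in less mature NK cells (2.43-fold), T cells (1.76-fold), B cells (1.35-fold) and Csf1r-positive cells (1.24-fold), and Junb was 1.74-fold, 1.34-fold, 1.22-fold and 1.26-fold higher in the same order. Tissue digestion is known to induce such genes; its part here was not tested. The heat-shock list had a median of 0.04, and Hspa1a stood at 0.841 times (0.752 to 0.939), or 0.922 times without mixed barcodes.

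NK receptor genes differed in direction. Among the Ly49 genes outside the rule, Klra3 (Ly49C) stood at 110 and 207 CPM, 1.87-fold (1.48 to 2.37), and Klra9 at 237 and 323 CPM, 1.36-fold (1.15 to 1.62). Klra1 stood at 80.0 and 52.6 CPM, 0.657 times (0.449 to 0.949), and Klra7 (Ly49G) at 506 and 423 CPM, 0.836 times (0.731 to 0.954). With the thinned gate Klra9 turned to 0.971 times (0.753 to 1.25), and among members with Klrg1 Klra7 turned to 1.08 times (0.848 to 1.37). The Klra genes lie side by side on chromosome 6 and are close in sequence, so reads may be shared or lost between them. The mean number of Ly49 genes detected per member was 2.64 in WT and 2.76 in Vsig4 KO, and 1.52 and 1.57 after thinning.

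Klrc1, which encodes the inhibitory NKG2A, stood at 209 and 382 CPM, 1.83-fold (1.55 to 2.17), while its partner Klrd1 (CD94) was at 0.925 times (0.826 to 1.04) and the activating Klrk1 (NKG2D) at 0.944 times (0.840 to 1.06). The adaptor Tyrobp (DAP12) was at 0.907 times (0.862 to 0.954). Among receptors of the CD155 axis, Tigit stood at 111 and 153 CPM, 1.38-fold (1.07 to 1.77), Cd226 at 1.42-fold (0.908 to 2.22) and Cd96 at 0.771 times (0.454 to 1.28). Entpd1 (CD39), an ectoenzyme that degrades ATP, gave 38 and 68 UMIs, 2.54-fold (1.68 to 3.88); in less mature NK cells its ratio was 0.988 (0.359 to 2.52). Klrc1 was 1.67-fold (1.33 to 2.11) and Tigit 1.73-fold (1.28 to 2.34) higher in the less mature Vsig4 KO cells too.

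**Figure D4:**
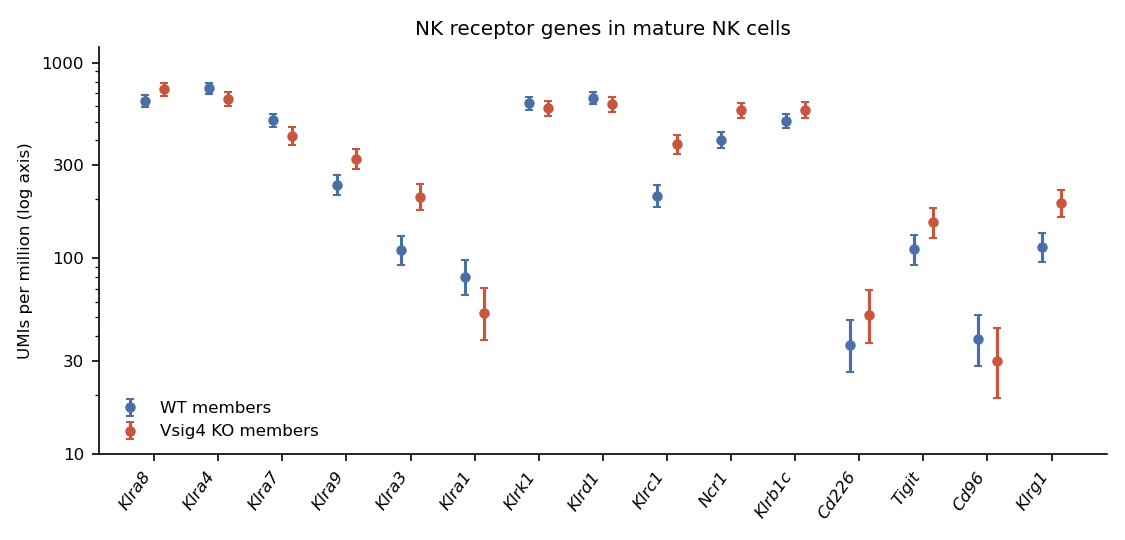
CPM of NK receptor genes in mature NK cells of the WT (blue) and Vsig4 KO (red) libraries on a log axis, with exact 95% Poisson intervals. Among genes outside the rule, Klra3, Klra9, Klrc1 and Tigit stand higher in Vsig4 KO, and Klra1 and Klra7 lower. The interval of the ratio excludes 1 for these genes and includes 1 for Klrk1, Klrd1, Cd226 and Cd96. The bars drawn can overlap even where the interval of the ratio excludes 1. Klrg1, Ncr1, Klrb1c, Klra8 and Klra4 belong to the rule that chose the cells and are drawn as a description only.

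Genes of homing and egress included 16 of 23 that were higher. S1pr4 stood at 74.1 and 135 CPM, 1.82-fold (1.37 to 2.44), the chemokine receptor Cxcr4 at 242 and 370 CPM, 1.53-fold (1.30 to 1.81), and Rgs1, which dampens chemokine receptor signals, at 375 and 687 CPM, 1.83-fold (1.62 to 2.08). Of 21 NK transcription factors 11 were higher; Bhlhe40, which supports interferon-gamma production, stood at 297 and 467 CPM, 1.57-fold (1.36 to 1.82). Among cytokine receptors, the common gamma chain Il2rg was 1.46-fold higher (1.26 to 1.69) and Tgfbr2 at 0.752 times (0.574 to 0.980). In the signalling list none of 20 genes reached 1.5-fold in either direction; Dok2 was highest at 1.38-fold and Syk lowest at 0.728 times (0.577 to 0.914).

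Of 35 oxidative phosphorylation genes 28 were lower in Vsig4 KO, with a median of -0.14, and none reached 1.5-fold. Cox6c stood at 0.753 times (0.657 to 0.863). Glycolysis genes had a median of 0.28, which was 0.05 without mixed barcodes; Pgk1 went from 1.49-fold to 0.894-fold. The type I interferon list went from 0.20 to -0.02, and MHC class I from 0.14 to 0.02. Cell-cycle genes had a median of -0.43 with 10 of 13 lower, but cycling cells were few: 7.89% of WT members (5.17 to 11.4) and 11.5% of Vsig4 KO members (7.56 to 16.5) held a UMI of Mki67, Top2a, Birc5, Ccna2 or Ube2c. The replication clamp Pcna stood at 0.693 times (0.506 to 0.941). The median of the cell-cycle list was -0.05 without those cells.

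**Figure D5:**
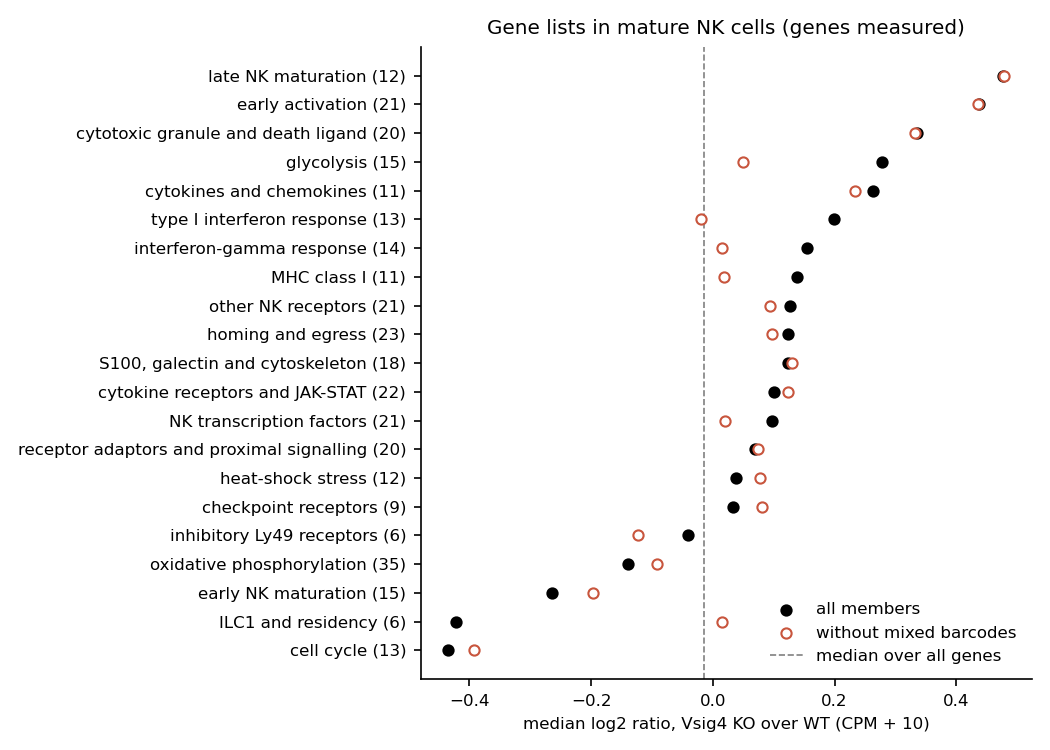
Median log2 ratio of CPM plus 10, Vsig4 KO over WT, for gene lists in mature NK cells, with the number of genes measured in brackets; filled points use all members, open points leave out mixed barcodes, and the dashed line is the median over all genes. Late maturation, early activation and cytotoxic genes keep their place, while glycolysis, type I interferon and ILC1 genes move towards the line.

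Several of the largest ratios were found in other cells too. Hist1h2ap stood at 5.09-fold in members, and at 1.39-fold, 3.31-fold and 6.52-fold in T, B and Csf1r-positive cells. The lowest ratio was that of Gm47283, with 94 UMIs in WT and 6 in Vsig4 KO, 0.0905 times (0.0324 to 0.205). In T, B and Csf1r-positive cells Gm47283 stood at 0.0891, 0.0910 and 0.0481 times. The peptide transporter Slc15a2 was 2.63-fold higher, and 2.81-fold, 3.04-fold and 3.74-fold in those cells, and the protease Ctse was at 0.280 times, and 0.393, 0.309 and 0.416 times. Camk2b was 1.85-fold higher in members, or 2.30-fold without mixed barcodes. Cdk5rap1 gave 3 UMIs in WT and 29 in Vsig4 KO, too few for the gene count above. Of the genes past 1.5-fold, 7 of the higher and 3 of the lower ones were past it in T, B and Csf1r-positive cells as well. Ppm1j, a phosphatase, stood at 25.3 and 66.9 CPM, 2.65-fold (1.67 to 4.27), and at 2.06-fold (1.11 to 3.87) in less mature NK cells and 1.29-fold (0.941 to 1.78) in T cells. L3mbtl3, a chromatin reader, stood at 72.4 and 28.7 CPM, 0.396 times (0.241 to 0.629), and 0.440 times without mixed barcodes. Sfxn1, a mitochondrial serine transporter, stood at 56.4 and 25.1 CPM, 0.445 times (0.259 to 0.735), against ratios of 1.04, 1.07 and 1.01 in T, B and Csf1r-positive cells. Several genes among the 12 lowest came with mixed barcodes: Bst2 went from 0.365 to 0.897 times without them, and Msrb1 from 0.361 to 0.738 times.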

How the data were processed

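Single-cell 5' RNA libraries of 2 samples, 1 WT and 1 Vsig4 KO, were analysed. The deposited files hold raw UMI counts per gene and barcode in filtered matrices, made by the authors with Cell Ranger 7.1.0 on mm10, per the submitters' processing notes. Of 31253 gene IDs 31107 matched GENCODE M21. From the counts, UMIs were summed over members and divided by all their UMIs (CPM). Intervals are exact Poisson (levels), Clopper-Pearson (shares) and conditional binomial (ratios), at 95%, and cover counting error only. List medians use log2(CPM + 10) and genes with at least 20 UMIs. With 1 library per genotype there was no test and no leave-one-out. The ratio and thinning code was tested on simulated data. The labels state a singlet sort. Scrublet (scanpy 1.11.5) marked 0 and 1 barcodes by its own threshold, so that threshold was not used, and doublets were not removed in the main values. Leaving out the highest-ranked scores was an alternative. It removed 17 WT and 8 Vsig4 KO members, of which 15 and 4 were mixed barcodes. Named genes were drawn from the rule's genes, a fixed set, up to 4 genes per list, and the 12 highest and 12 lowest ratios. They also came from the 10 on each side against less mature cells. Many of these highest and lowest genes are not named. Others, such as the 20 markers of mixed barcodes, were chosen after their values were seen. The members and lists were chosen with earlier results of these data known. Python 3.11.15, numpy 2.4.6 and scipy 1.17.1 were used.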

Additional observations from a re-analysis of the deposited data

Results flagged for a closer look

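The chemokine genes Ccl5 and Ccl3 and the galectin gene Lgals3 had Vsig4 KO over WT intervals on opposite sides of 1 in mature and less mature NK cells; the difference was not tested. Ccl5 was 1.24-fold higher in Vsig4 KO members (1.21 to 1.27) and 0.898 times as high in less mature cells (0.863 to 0.936). Ccl3 was 1.43-fold higher in members (1.28 to 1.60) and 0.744 times as high in less mature cells (0.584 to 0.943). Lgals3 was 1.26-fold higher (1.01 to 1.59) and 0.360 times as high (0.163 to 0.721), and 1 Vsig4 KO member gave 71 of its 147 UMIs.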

How the results depend on the processing

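With 1 library per genotype no replicate could be left out and no paired analysis was possible. The share ratio of members ran from 0.791 to 1.22. It was 0.964 (0.727 to 1.27) with the rule at 1000 UMIs per cell and 0.904 (0.729 to 1.12) with at least 2 maturity UMIs. It turned to 1.22 only with a Klrg1 UMI required. That requirement gave 86 genes higher and 67 lower in Vsig4 KO, thinned members gave 48 and 48, and a minimum of 20 UMIs with no share of cells 396 and 657. The rule at 1000 UMIs per cell gave 96 higher and 57 lower, against 130 and 179. Against less mature cells, that rule gave 21 higher and 7 lower, thinned cells 11 and 2, the lower minimum 202 and 53, and leaving out mixed barcodes, chosen after seeing the data, 16 lower. The late-maturation median was 0.32 with Klrg1 required, 0.31 with the rule at 1000 UMIs and 0.33 in thinned members. The early-maturation median was -0.15 with the rule at 1000 UMIs and -0.36 in thinned members, and the cytotoxic median 0.10 with that rule. The early-activation median was 0.33 with Klrg1 required, 0.25 in thinned members and 0.30 as a mean over cells. Fewer cells or UMIs leave fewer genes to count: 1328 with Klrg1 required, 1346 with the rule at 1000 UMIs and 1043 in thinned members, against 3919. The lower minimum left 6849. Against less mature cells, the genes that could be counted ran from 641 to 5548 over the alternative settings, against 2872 in the main run. The numbers of higher and lower genes are therefore not comparable between settings. With Klrg1 required, Klra7 turned to 1.08 and Hspa1a to 1.10, and with the rule at 1000 UMIs Klra9 turned to 0.971. With that rule the medians of the rule genes (-0.065), type I interferon (-0.53), interferon-gamma (-0.26), MHC class I (-0.070) and cytoskeleton (-0.056) lists turned. Type I interferon also turned with 2 maturity UMIs (-0.012), as a mean over cells (-0.12) and without mixed barcodes (-0.020). The cause was not tested. List medians were counted as moved past 0.1.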
